A study of Mus musculus with 30 samples.

Results

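Integrins and the proteins that tie them to actin at focal adhesions are encoded by the 39 genes described here, out of 19832 protein-coding genes of the mouse GRCm38 annotation (GENCODE vM21) that had a measured region within 50 kb of a transcription start site (TSS). A region was given to a gene when the nearest protein-coding TSS within 50 kb was that gene's. The rule itself uses no accessibility value, but the genes were listed with earlier results of these data known. By this rule the genes held 1098 of 305931 regions measured at 24 h and 1266 of 369846 regions measured at 4 h. Chromatin accessibility was measured by ATAC-seq, in which a transposase cuts open DNA, on 50000 cells per library. Marrow-derived mesenchymal stem cells (MSCs) were untreated, treated with CK666 (an inhibitor of the Arp2/3 complex, which branches actin filaments) or treated with cytochalasin D (CytoD, which blocks actin polymerization) for 24 h. MSCs and NIH3T3 cells, a mouse embryonic fibroblast line, were also left untreated or given CK666 for 4 h. Every group had 3 libraries, and all were labelled male C57BL/6J, with the control treatment given as none. The paper names C57BL/6J mice only for the MSCs and gives ATCC as the source of NIH3T3. The strain label of NIH3T3 was therefore not relied on, and a strain difference cannot be told apart from cell type. The MSCs came from the marrow of several mice, with no age stated in the labels, and NIH3T3 is a single immortalized line whose gene copy number was not separated from accessibility. Nothing in the labels says that replicates were separate cultures or animals, so p-values measure the spread between these libraries, which may be technical. Libraries of an siRNA experiment were not used here.

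Integrins are heterodimers of an alpha and a beta chain that bind collagen, laminin, fibronectin and other matrix proteins outside the cell. Inside, talins and kindlins bind beta tails, and LIM-domain, tensin and actin-crosslinking proteins build the focal adhesion plaque that carries force between matrix and actin. Several of these genes are known targets of the actin-regulated cofactors of serum response factor and of YAP, and their products are linked to lineage choice in mesenchymal cells.

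The 6 sequences printed next carry the main regional results: regions gained with CK666 (Pdlim5, Tns3 and Itga2), regions lost with both drugs at 24 h (Actn1 and Itgb6) and a region lost with CytoD at 24 h and with CK666 at 4 h (Lpp). Each is the central 300 bases of the region, plus strand of GRCm38, 5′ to 3′. Capitals mark matches on either strand to the letters TGACTCA (AP-1), GGAATG (TEAD), TGTGGT (RUNX) and GGGCGG (SP/KLF) and to the CArG box, the element bound by serum response factor. A match is a description of letters and not a bound site.
Pdlim5 intron, chr3:142342641-142342940: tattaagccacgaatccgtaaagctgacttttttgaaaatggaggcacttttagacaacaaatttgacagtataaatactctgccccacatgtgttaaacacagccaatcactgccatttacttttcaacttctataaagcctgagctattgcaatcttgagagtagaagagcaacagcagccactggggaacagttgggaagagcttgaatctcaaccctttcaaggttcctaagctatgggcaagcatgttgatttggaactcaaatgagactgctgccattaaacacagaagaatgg
Tns3 intron, chr11:8656800-8657099: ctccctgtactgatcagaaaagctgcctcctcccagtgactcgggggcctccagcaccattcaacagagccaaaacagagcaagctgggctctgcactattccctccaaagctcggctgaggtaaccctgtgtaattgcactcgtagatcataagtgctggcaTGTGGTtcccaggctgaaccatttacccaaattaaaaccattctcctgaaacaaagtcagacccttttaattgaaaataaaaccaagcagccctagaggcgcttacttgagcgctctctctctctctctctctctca
Itga2 region, chr13:114971946-114972245: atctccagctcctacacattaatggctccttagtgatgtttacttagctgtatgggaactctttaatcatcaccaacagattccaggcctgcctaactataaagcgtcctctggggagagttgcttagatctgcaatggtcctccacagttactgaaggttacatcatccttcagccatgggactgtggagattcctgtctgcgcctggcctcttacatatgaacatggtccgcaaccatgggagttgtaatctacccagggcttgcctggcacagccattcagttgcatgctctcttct
Actn1 intron, chr12:80220263-80220562: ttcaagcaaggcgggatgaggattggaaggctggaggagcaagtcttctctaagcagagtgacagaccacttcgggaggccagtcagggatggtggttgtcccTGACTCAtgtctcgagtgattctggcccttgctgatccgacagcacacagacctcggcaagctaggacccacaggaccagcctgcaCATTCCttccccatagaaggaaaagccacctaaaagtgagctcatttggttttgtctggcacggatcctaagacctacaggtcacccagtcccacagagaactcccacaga
Itgb6 intron, chr2:60700960-60701259: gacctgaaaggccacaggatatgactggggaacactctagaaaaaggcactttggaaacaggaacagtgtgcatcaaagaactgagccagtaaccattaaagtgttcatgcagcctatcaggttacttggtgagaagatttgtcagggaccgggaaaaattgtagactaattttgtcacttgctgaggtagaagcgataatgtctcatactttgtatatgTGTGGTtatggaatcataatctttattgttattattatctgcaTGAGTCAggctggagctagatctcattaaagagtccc
Lpp intron, chr16:24494565-24494864: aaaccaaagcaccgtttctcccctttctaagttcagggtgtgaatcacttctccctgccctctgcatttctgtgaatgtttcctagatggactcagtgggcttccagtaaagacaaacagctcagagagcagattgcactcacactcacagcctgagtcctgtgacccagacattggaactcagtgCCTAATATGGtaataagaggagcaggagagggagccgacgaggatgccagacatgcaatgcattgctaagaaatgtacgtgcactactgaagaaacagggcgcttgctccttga
The Actn1 stretch held an AP-1 match and a TEAD match, the Itgb6 stretch an AP-1 match and a RUNX match, the Tns3 stretch a RUNX match and the Lpp stretch a CArG box. None of these letters occurred in the Pdlim5 and Itga2 stretches.

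Total counts per library were 14071301 to 22352180 at 24 h, 29239381 to 34979833 for MSCs at 4 h and 14496058 to 27866363 for NIH3T3 at 4 h, the lowest of the last being a CK666 library. Rank correlations between libraries of a group were 0.869 to 0.917 at 24 h, 0.919 to 0.931 for MSCs at 4 h and 0.825 to 0.908 for NIH3T3. Of 12 mesenchymal marker genes, 8 had a TSS region at 24 h and 10 at 4 h, with summed levels of 99.5 (control), 93.3 (CK666) and 80.7 (CytoD) CPM per kb (CPM, counts scaled to a common library total) at 24 h. Haematopoietic markers, which marrow cells could bring in, had a TSS region for 2 of 8 genes, with sums of 5.63, 4.28 and 7.23. Endothelial markers (2 of 4 genes) summed to 4.81, 5.52 and 4.76, and epithelial markers (1 of 2 genes) to 1.34, 0.968 and 1.12. In MSCs at 4 h the haematopoietic sum was 7.165 in controls and 5.319 with CK666, the mesenchymal sum 101.8 in both and the endothelial sum (3 of 4 genes) 7.956 and 7.974, and in NIH3T3 cells the mesenchymal sum was 88.85 and 84.7 and the haematopoietic sum 9.03 and 7.89. These sums cover unequal numbers of genes and hide overlap between single genes. In control MSCs at 24 h the haematopoietic gene Csf1r (4.262) was above Prrx1 and close to Col1a1 (4.503). The mesenchymal median there was 11.1. In control MSCs at 4 h Csf1r (5.451) was above Col1a1 (2.84), Prrx1 (2.107), Lepr (0.371) and Thy1 (0.048). The mesenchymal median there was 7.33, above Csf1r. The part of these marker levels in the results was not tested.

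After 4 h of CK666, integrin and focal adhesion genes in MSCs had more regions called lower than called higher, and a larger share called lower than all regions had. A region was called when edgeR's quasi-likelihood test gave a Benjamini-Hochberg adjusted p under 0.01 over all regions tested and the log2 fold change was beyond 1. Of 1122 member regions tested, 42 fell and 4 rose, which is 3.74% and 0.357%, against 0.427% falling and 0.59% rising among all regions. The median log2 fold change of member regions was -0.125 against 0.001 over all regions. In NIH3T3 cells the same treatment lowered 30 and raised 18 of 1177 member regions (2.55% and 1.53%), against 1.67% and 1.87% of all regions. Over all regions the direction depended on the fit: edgeR called 6216 higher and 5549 lower. With DESeq2, an alternative test, 3174 were higher and 4827 lower. Each fit without 1 library also had more lower than higher, such as 3454 higher and 4534 lower without control replicate 1. A fit of all 12 libraries had 6230 higher and 5767 lower. The paper reports more increased than decreased regions for this line, the reverse of the DESeq2 direction here. After 24 h of CK666, MSCs had 20 member gains and 7 losses among 1092 regions (1.83% and 0.641%), against 1.88% and 1.06% of all regions, so the shares lay near or below the background. With CytoD for 24 h, 25 member regions fell and 11 rose (2.29% and 1.01%), against 1.4% and 0.98%. Both 24 h comparisons used the same 3 control libraries. The direct test of CK666 against CytoD called 30 member regions higher and 13 lower with CK666 (2.75% and 1.19%), against 2.14% and 1.14%.

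**Figure D1:**
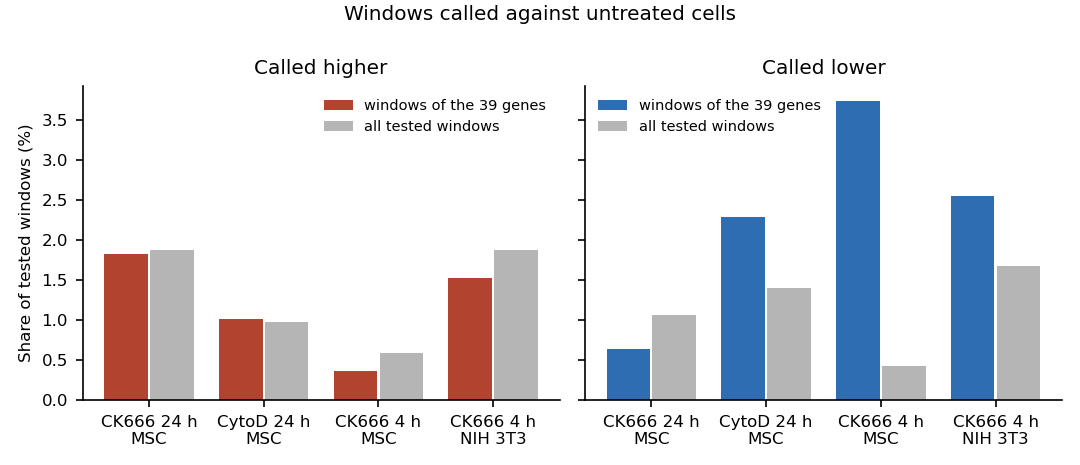
Share of tested regions called higher and called lower (percent, vertical axis) in the 4 comparisons of drug with control, for regions of the 39 genes and for all regions. The bar for members called lower after 4 h of CK666 in MSCs stands at 3.74%, beside 0.427% for all regions.

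Scaling moved some of these splits. With total counts in place of trimmed-mean (TMM) scaling, 16 member regions fell and 11 rose with CytoD, and the share of gains among all called regions went from 41.2% to 56.4%. For the direct comparison the member split became 22 higher and 14 lower (gains among all calls 65.3% to 53.8%), and for CK666 in NIH3T3 cells 20 higher and 24 lower (52.8% to 69.5%). The 4 h MSC split, 4 higher and 41 lower, and the 24 h CK666 split, 20 higher and 7 lower, barely moved. Total counts shifted the median of all regions by 0.11 on the log2 scale for CK666 in NIH3T3 cells.

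Of the 39 genes, 32 had at least 1 called region in a drug comparison. The 7 without any were 6 integrin alpha chains (Itga1, Itga3, Itga4, Itga6, Itga10, Itga11) and the LIM-domain adaptor gene Pdlim7. By role, the LIM-domain adaptors, which dock signalling proteins at adhesions and stress fibres, held 23 of the 42 losses in MSCs at 4 h among 170 regions, with a median log2 fold change of -0.502. Actin crosslinkers and Ena/VASP proteins held 6 losses among 109 regions with a median of -0.291, talins and kindlin 4 among 64 with a median of -0.193, and integrin beta chains 4 losses and 1 gain among 168 with a median of -0.022. Tensins, which link beta tails to actin, had 2 gains and 0 losses among 133 regions. With CytoD, beta chains held 8 of the 25 losses among 165 regions, and actin crosslinkers and Ena/VASP proteins 6 among 100. In NIH3T3 cells the alpha chains Itga4 and Itga9 had 3 losses, all at Itga9, among 63 regions with a median of -0.451. The tensins there had 4 gains and 1 loss among 142 with a median of 0.177.

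**Figure D2:**
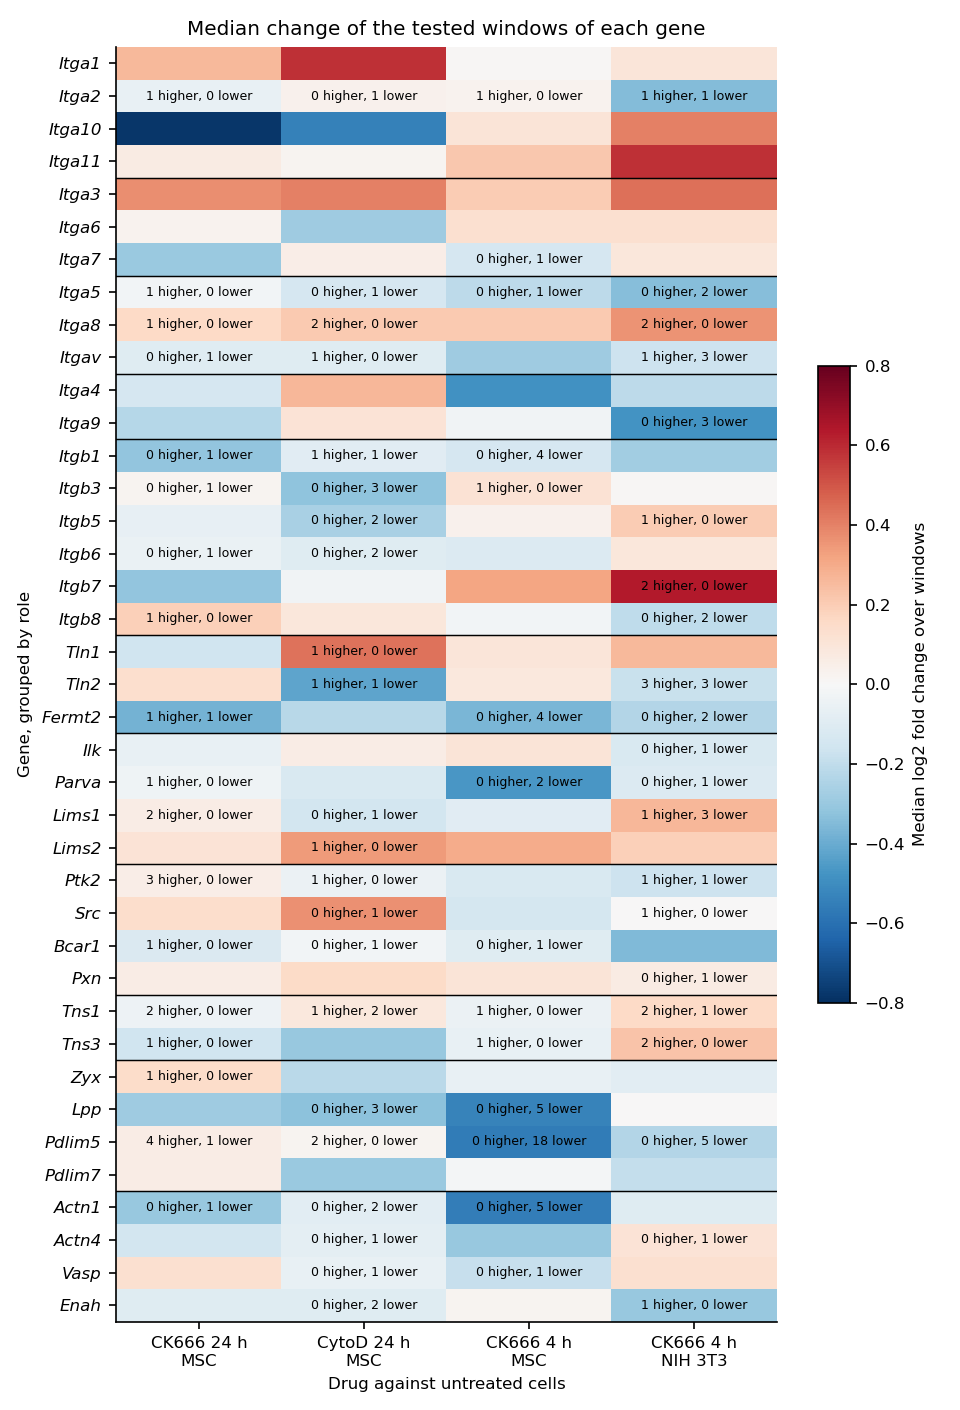
Median log2 fold change of the tested regions of each of the 39 genes (rows, by role) in the 4 comparisons of drug with control (columns); the text in each cell counts regions called higher and lower. Pdlim5 (median -0.558, 18 lower), Actn1 (-0.553, 5 lower) and Lpp (-0.533, 5 lower) have the lowest medians in MSCs after 4 h of CK666.

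The losses in MSCs at 4 h were concentrated in few genes: 18 lay at Pdlim5, 5 each at Actn1 and Lpp, 4 each at Fermt2 and Itgb1, 2 at Parva and 1 each at Bcar1, Itga5, Itga7 and Vasp. Over 19234 genes with a tested region, 24 had 4 or more losses in the edgeR fit of MSCs alone, and 5 of these were members. With DESeq2 Actn1 had 1 loss and Itgb1 3. With all 12 libraries fitted Actn1 and Fermt2 had 2 each and Itgb1 3. The count over all genes was not repeated in those fits. Among 2711 genes with at least 20 tested regions, the gene medians of Pdlim5 (-0.558), Actn1 (-0.553) and Lpp (-0.533) ranked 8, 9 and 10 from the lowest, Parva (-0.463) ranked 16 and Fermt2 (-0.363) ranked 34, and the median over genes was -0.013. Without Pdlim5, 24 of 1025 member regions fell, or 2.34%. The account of position and of these 5 genes was chosen after their values were seen.

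Pdlim5, which encodes a PDZ and LIM-domain protein of stress fibres and Z-discs that binds alpha-actinin, lost accessibility along its body. The body spans 156.1 kb, and 68 of its 78 tested regions were below 0, with a median log2 fold change of -0.659 and 18 losses, all in introns. The intronic region chr3:142359493-142360061 had 60.9, 58.9 and 69.7 normalized counts in control libraries 1 to 3 and 10.9, 18.6 and 21.1 with CK666. Normalized counts are TMM-scaled to the mean library of their fit. The groups were far apart, and the log2 fold change was -1.89 (SE 0.28, adjusted p = 4.95e-07). A second intronic region, chr3:142276423-142277500, had 54.5, 44.2 and 38.6 counts in controls and 19.9, 12.4 and 7.66 with CK666. All treated libraries were again below all controls (log2 fold change -1.78, adjusted p = 5.38e-05), and both calls held without any 1 library. Other Pdlim5 calls rested on fewer counts: the region at 142333382 (-1.58) missed the threshold without control replicate 1 (-1.37, adjusted p = 0.03045) or CK666 replicate 1 (-1.42, adjusted p = 0.01049), that at 142369698 (-1.58) without control replicate 1 (-1.34, adjusted p = 0.01166), and that at 142337429 (-1.56) without CK666 replicate 2 (-1.34, adjusted p = 0.01282). In NIH3T3 cells the Pdlim5 body had 82 tested regions, 5 losses and a median of -0.262.

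**Figure D3:**
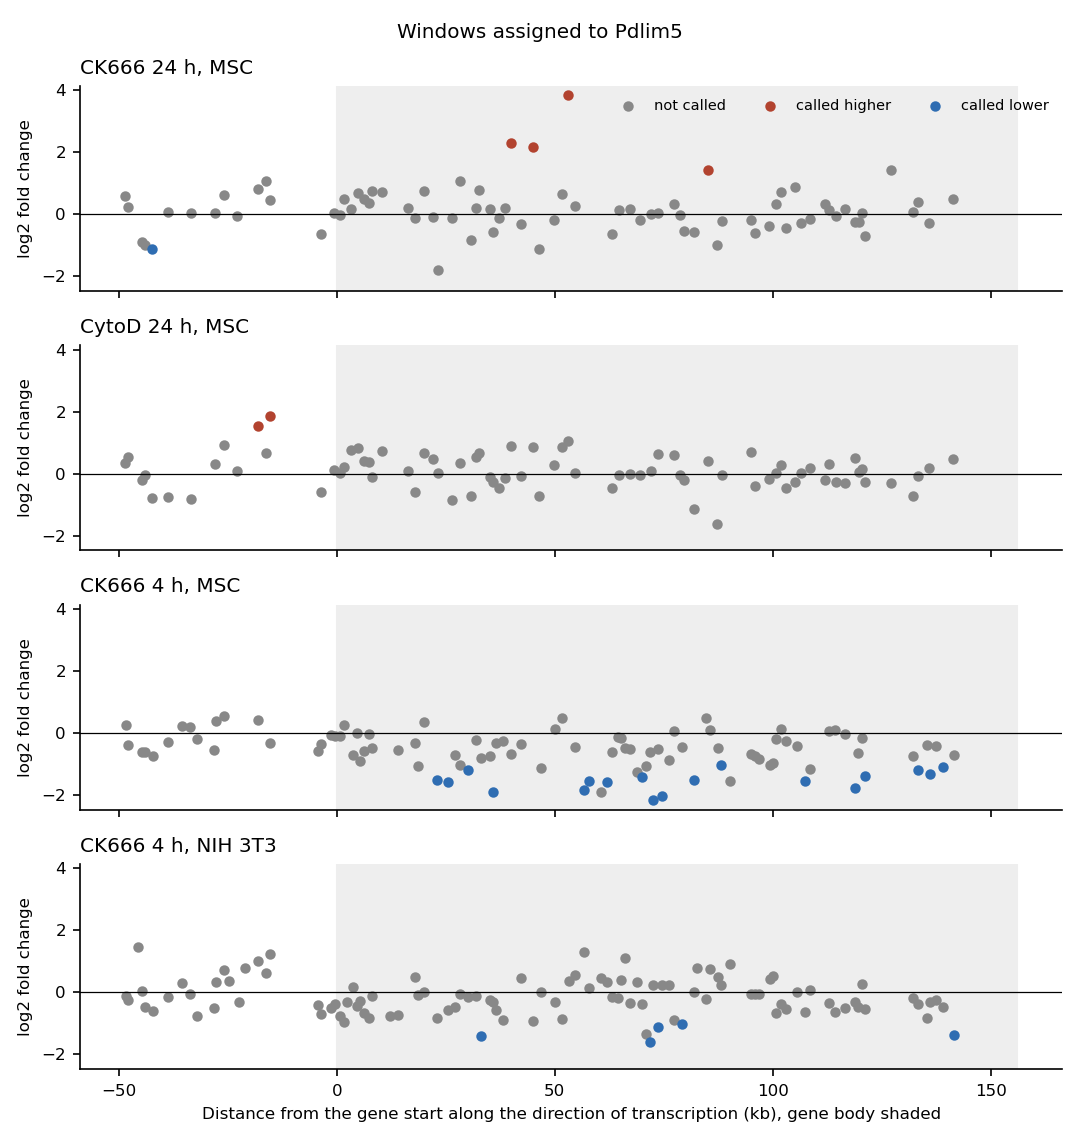
Log2 fold change of each tested region of Pdlim5 (vertical axis) against its distance from the gene start in kb (horizontal axis), 1 panel per comparison, with the gene body shaded, blue points called lower, red called higher and grey not called. In MSCs after 4 h of CK666, 18 points inside the body are blue and 68 of 78 lie below 0, while after 24 h of CK666 the 4 called points inside the body are red.

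Actn1, encoding the actin crosslinker alpha-actinin-1, showed the same kind of shift, with 28 of 30 body regions below 0, 4 losses there and a median of -0.635. Its intronic region chr12:80258564-80259120 had 195.6, 221.0 and 221.9 counts in controls and 93.5, 78.7 and 91.9 with CK666. This was a fall of more than 1 on the log2 scale with no overlap (-1.28, SE 0.14, adjusted p = 8.65e-11). The region at chr12:80218968-80219903, lower at -1.58, missed the threshold without CK666 replicate 3 (-1.28, adjusted p = 0.03573), control replicate 1 (-1.53, adjusted p = 0.0175) or control replicate 3 (-1.57, adjusted p = 0.01026). Lpp, a zyxin relative found at adhesions and in the nucleus, had 40 of 45 body regions below 0. Its intronic CArG-containing region chr16:24494434-24494977 had 337.8, 280.9 and 281.9 counts in controls and 134.3, 166.2 and 116.8 with CK666. Every treated library was below every control, with a log2 fold change of -1.10 (SE 0.12, adjusted p = 5.25e-11). An alternative Lpp TSS at chr16:24447687-24448243 fell from 192.4, 190.4 and 176.8 to 81.6, 79.6 and 88.1 (-1.17, adjusted p = 6.77e-09).

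For Fermt2, encoding kindlin-2, an activator of beta chains, and for Itgb1, the beta chain shared by most matrix-binding integrins, the losses reached past the 3′ end. All 8 tested regions downstream of Fermt2 were below 0, 2 of them called. At Itgb1 all 7 downstream regions were below 0 with a median of -1.102, and all 4 losses lay there, inside the neighbouring gene Ccdc7a, while none of 22 regions in the Itgb1 body was called. The one with most counts, chr8:128741039-128745358, had 393.4, 395.6 and 393.3 counts in controls and 139.2, 180.4 and 160.8 with CK666. The controls were nearly equal, and the log2 fold change was -1.29 (SE 0.11, adjusted p = 3.33e-16). Over all members, 30 of 730 regions in gene bodies fell (4.11%), 6 of 43 downstream (14%), 5 of 292 upstream (1.71%) and 1 of 57 at a TSS (1.75%). Intronic member regions fell in 30 of 680 cases, or 4.41%, against 0.409% of all intronic regions.

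Among the single losses, the one upstream of Bcar1, which encodes the adhesion scaffold p130Cas, had 515.3, 471.4 and 442.6 counts in controls and 255.6, 259.0 and 199.1 with CK666 (-1.0, adjusted p = 3.75e-13). An Itga7 intron region, chr10:128947310-128947953, was lower at -1.53 (adjusted p = 0.004688), a call that missed the threshold without CK666 replicate 2 or 3 or control replicate 2 or 3, with -1.18 and adjusted p = 0.1326 without control replicate 3. Itga7 encodes a laminin-binding alpha chain of muscle.

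The count of 42 depended on the fit. DESeq2 called 24 member regions lower, all of them among the 42 and 9 at Pdlim5, and gave no adjusted p for 10 of the 42. A fit of all 12 libraries of the 4 h table called 24, of which 11 were at Pdlim5. Leaving out 1 library gave 25 to 39, with 25 without CK666 replicate 2 and 25 without control replicate 2. Over 14 settings the median log2 fold change of the 42 regions stayed between -1.36 and -1.29. These 42 were chosen for falls beyond 1, and the settings reuse the same libraries. The steady median was thus largely set by the choice and is no separate support for its size.

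The same 42 regions were looked up in the other comparisons. In NIH3T3 cells 40 were tested, 26 were below 0, the median log2 fold change was -0.32 and 0 were called lower. In the test of the difference between the cell types, 6 of 42 passed adjusted p 0.01, with a median difference of 1.02 (NIH3T3 minus MSC), and of the 18 Pdlim5 regions 2 passed. For the rest the response was not shown to differ between cell types. The 42 were chosen for their fall in MSCs, which this difference subtracts, so a median above 0 was largely built in. Of all 1265 member regions tested for the difference, 50 passed the same adjusted p. At the large Itgb1 downstream region NIH3T3 controls had 137.7, 137.2 and 152.8 counts and CK666 libraries 127.5, 134.1 and 128.1. At 24 h, 33 of the 42 overlapped 35 regions, where CK666 gave a median of -0.32 with 30 below 0 and 1 past the adjusted p, and CytoD a median of -0.24 with 2 past it. No loss at 4 h overlapped a loss at 24 h of CK666 (0 of 42 and 0 of 7), and 2 gains overlapped, 50% of the 4 gains at 4 h and 10% of the 20 at 24 h. The fold limit shaped the count of 0. At 4 h in MSCs, regions under the 24 h losses at Itgb6 (-0.95), Actn1 (-0.89), Pdlim5 (-0.75) and Fermt2 (-0.58) passed the adjusted p alone. Those at Itgb1 (-0.31), Itgav (-0.02) and Itgb3 (0.0008) did not. The overlap between times over all regions was not counted.

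After 24 h of CK666 the strongest member gain was in Pdlim5, the gene with most losses at 4 h. The intronic region chr3:142342519-142343061 had 7.79, 4.26 and 4.47 counts in controls and 89.0, 62.6 and 79.6 with CK666, while CytoD libraries had 15.3, 6.07 and 11.9. All CK666 libraries were far above both other groups, with a log2 fold change of 3.84 (SE 0.38, adjusted p = 2.05e-13). A second Pdlim5 intron region, chr3:142350435-142350969, rose from 7.79, 8.52 and 5.36 to 37.5, 33.1 and 28.5 (2.18, adjusted p = 0.0001376). Of 80 Pdlim5 regions tested at 24 h, 4 rose and 1 fell with CK666.

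Integrin genes were among the other gains. Itga5 encodes the alpha chain of the fibronectin receptor, and its region chr15:103384459-103385000 had 3.90, 11.9 and 3.58 counts in controls and 47.8, 39.2 and 52.1 with CK666 (2.76, adjusted p = 9.23e-07). Itgb8 encodes a beta chain that binds latent TGF-beta, and chr12:119209292-119209909 rose from 13.0, 11.1 and 9.83 to 55.3, 55.7 and 71.7 (2.43, adjusted p = 2.59e-08). At Fermt2 the intronic region chr14:45487103-45487713 rose from 15.6, 22.2 and 16.1 to 56.2, 60.9 and 64.9 (1.73, adjusted p = 8.99e-06). These 3 regions had treated libraries well above every control and kept their calls without any 1 library. A region near Itga8, chr2:12307170-12307784, was higher at 1.81 (adjusted p = 0.000633) but missed the threshold without CK666 replicate 2 (1.70, adjusted p = 0.01159) or CK666 replicate 3 (1.62, adjusted p = 0.01677). Signalling genes held 4 gains and 0 losses among 156 regions, near the share of all regions, and 3 of the gains were at Ptk2, which encodes focal adhesion kinase.

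The 7 losses with CK666 at 24 h included 3 beta chain genes. At Itgav, the alpha chain of the vitronectin receptors, chr2:83783867-83784429 fell from 151.9, 144.9 and 176.1 counts to 62.7, 53.1 and 33.4 (-1.66, SE 0.18, adjusted p = 3.33e-12). CytoD libraries there had 176.9, 187.0 and 217.6 counts, all above the controls. An alternative TSS of Fermt2, chr14:45477607-45478157, fell from 388.3, 421.1 and 423.6 to 183.5, 190.5 and 182.8 (-1.15, SE 0.11, adjusted p = 6.19e-14). Itgb3, whose product pairs with the alpha V chain, fell at chr11:104622171-104622987 from 88.3, 76.7 and 88.5 to 41.2, 32.2 and 41.3 (-1.14, adjusted p = 0.000109). The Itgb1 intron region at chr8:128698758-128699420 was lower at -1.17 (adjusted p = 0.002624), with 62.3, 61.4 and 33.1 counts in controls and 17.8, 20.01 and 31.5 with CK666, so control 3 lay close to the treated libraries. That call missed the threshold without CK666 replicate 1 (-1.04) or 2 (-1.09) or control replicate 1 (-1.06) or 2 (-1.04).

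Of the 25 losses with CytoD at 24 h, 8 lay at beta chains, 6 at actin crosslinkers and Ena/VASP proteins, 3 at LIM-domain adaptors and 2 at tensins. Lims1 encodes PINCH1, the partner of integrin-linked kinase, and its region chr10:58320772-58321343 had 77.9, 68.2 and 97.4 counts in controls, 20.4, 26.7 and 19.2 with CytoD and 86.2, 88.8 and 100.2 with CK666. The CytoD libraries alone were low, with log2 fold changes of -1.89 for CytoD (SE 0.25, adjusted p = 1.59e-08) and 0.17 for CK666 (adjusted p = 0.6976). A Tns1 region, chr1:74028729-74029331, fell from 310.4, 372.5 and 378.0 to 114.5, 109.3 and 107.9 (-1.68, SE 0.13, adjusted p = 1.05e-17). With CK666 the same Tns1 region was at -0.93, past the adjusted p but under the fold limit. Lpp fell at chr16:24678853-24679467 from 58.4, 71.6 and 60.8 to 31.8, 21.9 and 20.1 (-1.39, adjusted p = 0.000102). The Lpp region with the CArG box had 79.2, 121.9 and 118.9 counts in controls, 39.5, 48.6 and 39.3 with CytoD and 91.8, 80.9 and 95.3 with CK666. It fell with CytoD (-1.35, adjusted p = 1.1e-06) and was at -0.28 with CK666 (adjusted p = 0.4377). An Itga2 region, chr13:114860176-114860703, fell from 54.6, 60.5 and 46.5 to 12.7, 20.7 and 25.6 (-1.42, adjusted p = 0.0003994). Itga2 encodes the alpha chain of a collagen receptor.

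The beta chain losses with CytoD were spread over Itgb1, Itgb3, Itgb5 and Itgb6, with 3 of them at Itgb3. The 11 gains with CytoD included a Lims2 region of low counts, with 15.6, 6.82 and 1.79 in controls and 28.0, 21.9 and 42.1 with CytoD (2.02, adjusted p = 0.004227). At Pdlim5, chr3:142410842-142411389 rose from 54.6, 44.3 and 38.4 counts to 169.2, 161.5 and 166.4 (1.87, adjusted p = 3.34e-12) and chr3:142413445-142413964 from 67.5, 71.6 and 101.0 to 216.3, 247.7 and 233.2 (1.52, adjusted p = 8.49e-13). The CytoD libraries of both Pdlim5 regions were above all controls, and their calls held without any 1 library. The gain at Tln1, encoding talin-1, rested on single libraries: chr4:43551427-43552167 was higher at 1.46 (adjusted p = 0.002325) but was at 1.11 (adjusted p = 0.09909) without CytoD replicate 3, and the call was also lost without CytoD replicate 1 or control replicate 1 or 2. The same held for both named gains at Itga8, where the region at 12114203 went from 1.52 to 1.12 (adjusted p = 0.05475) without control replicate 2 and that at 12109875 from 1.53 to 1.35 (adjusted p = 0.01815) without control replicate 1, and for single gains at Ptk2 (1.26, and 0.99 without control replicate 3), Itgb1 (1.17, and 0.79 without control replicate 2) and Tns1 (1.11, and 0.90 without control replicate 3). Among the losses it held at Actn1 for the region at 80234106 (-1.36, and -1.05 with adjusted p = 0.1361 without control replicate 2) and at Enah for that at 181984674 (-1.44, and -1.17 with adjusted p = 0.03024 without CytoD replicate 2).

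At 24 h, 2 member regions fell with both drugs. The Actn1 intron region chr12:80220145-80220679 had 292.2, 332.4 and 310.1 counts in controls, 152.6, 140.1 and 159.2 with CK666 and 115.8, 127.5 and 123.4 with CytoD. Neither drug group overlapped the controls, with log2 fold changes of -1.05 (SE 0.12, adjusted p = 2.15e-10) and -1.35 (SE 0.13, adjusted p = 2.36e-13). At 4 h the overlapping region was at -0.89 in MSCs (adjusted p = 1e-17), under the fold limit, and at -0.24 in NIH3T3 cells (adjusted p = 0.2487). In an intron of Itgb6, chr2:60700756-60701463 had 163.6, 164.5 and 153.7 counts in controls, 81.5, 63.5 and 82.6 with CK666 and 80.2, 87.4 and 65.8 with CytoD. It fell by 1.08 with CK666 and by 1.05 with CytoD, and without CK666 replicate 2 the former was -0.98 (adjusted p = 0.0001198), just under the fold limit. Of the other called regions at 24 h, 20 gains and 5 losses were called with CK666 alone and 11 gains and 23 losses with CytoD alone. The split over all regions was not counted here, though the paper reports most changed regions as particular to a single drug. The fold limit shaped the member split. With CK666, regions among the 23 at Bcar1 (-0.94), Tns1 (-0.93), Lpp (-0.84), Itgb1 (-0.83), Itgb3 (-0.81) and Itgb6 (-0.73) also passed the adjusted p. The direct test called none of these, and the rest of the 23 did not pass with CK666. Since the controls are shared, the sharper comparison is the direct one.

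In the direct comparison CK666 was higher at the Tns3 intron (3.08, adjusted p = 1.86e-15), the Pdlim5 intron at 142342519 (2.78, adjusted p = 7.15e-10), Itga5 (2.16, adjusted p = 6.5e-05) and the Lims1 region at 58320772 (2.06, adjusted p = 3.76e-10). It was lower at Itgav (-1.96, adjusted p = 2.2e-15) and the Pdlim5 region at 142410842 (-1.40, adjusted p = 6.37e-09). The Tln1 region was lower with CK666 at -1.62 (adjusted p = 0.0005108), and missed the threshold without CytoD replicate 3 (-1.28, adjusted p = 0.04243) or CK666 replicate 3 (-1.38, adjusted p = 0.01313). The count of regions higher with CK666 was 19 without CK666 replicate 3, and that of regions lower was 5 without CytoD replicate 3.

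NIH3T3 cells given CK666 for 4 h had 4 gains and 1 loss at the tensins, and 3 gains and 3 losses at Tln2, which encodes talin-2, among 38 Tln2 regions with a median of -0.181. An intronic Tns3 region, chr11:8709560-8710082, had 21.3, 17.3 and 9.89 counts in controls and 78.6, 69.6 and 110.9 with CK666 (2.43, SE 0.28, adjusted p = 4.81e-10). At Tns1, chr1:73990839-73991436 rose from 30.4, 27.1 and 41.4 to 87.5, 123.7 and 105.1 (1.69, adjusted p = 3.86e-08). At Tln2, chr9:67463331-67464093 rose from 81.0, 59.2 and 33.3 to 161.6, 212.0 and 174.9 (1.68, adjusted p = 6.89e-10). These 3 gains showed no overlap between groups, whereas the Itgb5 gain (1.79) missed the threshold without CK666 replicate 3 (1.5, adjusted p = 0.05394) or control replicate 1 (1.53) or 3 (1.58). The count of 18 gains was 11 without CK666 replicate 3.

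Losses in NIH3T3 cells were led by Itga5. Its region chr15:103378844-103379455 fell from 260.3, 276.8 and 264.3 counts to 59.3, 71.7 and 83.1 (-1.88, SE 0.16, adjusted p = 4.62e-14). Parva, encoding alpha-parvin of the integrin-linked kinase complex, fell at chr7:112502789-112503432 from 77.0, 76.4 and 65.6 to 25.2, 27.0 and 24.9 (-1.5, adjusted p = 1.12e-05). Pdlim5 fell at chr3:142323478-142324071 from 130.7, 90.4 and 112.4 to 19.3, 45.7 and 39.2 (-1.62, adjusted p = 1.76e-07). Treated and control libraries were apart in all 3 regions. Itga9, which binds osteopontin and tenascin, fell at the regions at 118770323 (-1.64, adjusted p = 4.42e-05) and 118602516 (-1.595, adjusted p = 3.28e-05). Of the 3 Tln2 losses, the region at 67301460 was lower at -1.70 and was just outside the threshold without CK666 replicate 3 (-1.64, adjusted p = 0.01018).

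Regions of Tns3 and Itga2 rose with CK666 in MSCs at 24 h and at 4 h and in NIH3T3 cells at 4 h, the only time measured in that line. At 24 h the Tns3 intron region chr11:8656541-8657357 had 23.4, 25.6 and 22.3 counts in control MSCs, 146.1, 130.5 and 134.6 with CK666 and 3.82, 19.4 and 22.9 with CytoD (CK666 2.52, SE 0.25, adjusted p = 2.84e-13). At 4 h it had 13.9, 8.42 and 11.8 counts in control MSCs and 42.8, 36.3 and 26.8 with CK666 (1.62, SE 0.36, adjusted p = 0.001046), and in NIH3T3 cells 61.8, 74.8 and 65.6 in controls and 195.8, 253.6 and 239.9 with CK666 (1.77, SE 0.17, adjusted p = 8.74e-13). CK666 libraries were above controls in each of the 3 comparisons and CytoD libraries were not. For Itga2 the region, which lies in an intron of the neighbouring Itga1, had 13.0, 8.52 and 4.47 counts in control MSCs at 24 h, 31.8, 35.7 and 37.3 with CK666 and 2.55, 15.8 and 7.32 with CytoD (CK666 2.05, SE 0.45, adjusted p = 0.000584). At 4 h it had 21.4, 8.42 and 11.8 counts in control MSCs and 28.8, 44.2 and 59.4 with CK666 (1.67, SE 0.34, adjusted p = 0.0002432), and in NIH3T3 cells 10.1, 4.11 and 9.89 against 37.1, 34.3 and 25.8 (2.0, SE 0.44, adjusted p = 0.0006178). CytoD gave log2 fold changes of -0.56 (adjusted p = 0.3177) at Tns3 and 0.03 (adjusted p = 0.9808) at Itga2, and CK666 exceeded CytoD directly by 3.08 and 2.02 (adjusted p = 1.86e-15 and 0.0007704). The cell types did not differ past the threshold in this response (adjusted p = 0.9186 for Tns3 and 0.8266 for Itga2).

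The low counts left some of these calls to single libraries. At Itga2 the call was lost at 24 h without control replicate 3 (1.70, adjusted p = 0.01701), in MSCs at 4 h without CK666 replicate 3 (1.39, adjusted p = 0.01788) and in NIH3T3 cells without control replicate 2 (1.65, adjusted p = 0.01227). At Tns3 it was lost in MSCs at 4 h without CK666 replicate 1 (1.46, adjusted p = 0.01834) or control replicate 2 (1.45, adjusted p = 0.01433), and held in the other comparisons. The remaining gains in MSCs at 4 h were at Itgb3, where chr11:104599535-104600162 rose from 41.7, 47.4 and 28.9 to 110.4, 88.4 and 92.9 (1.30, adjusted p = 5.86e-06), and at Tns1, where chr1:74081379-74082221 was at 1.05 and went under the fold limit without CK666 replicate 1 (0.92), control replicate 1 (0.98) or control replicate 3 (0.92).

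**Figure D4:**
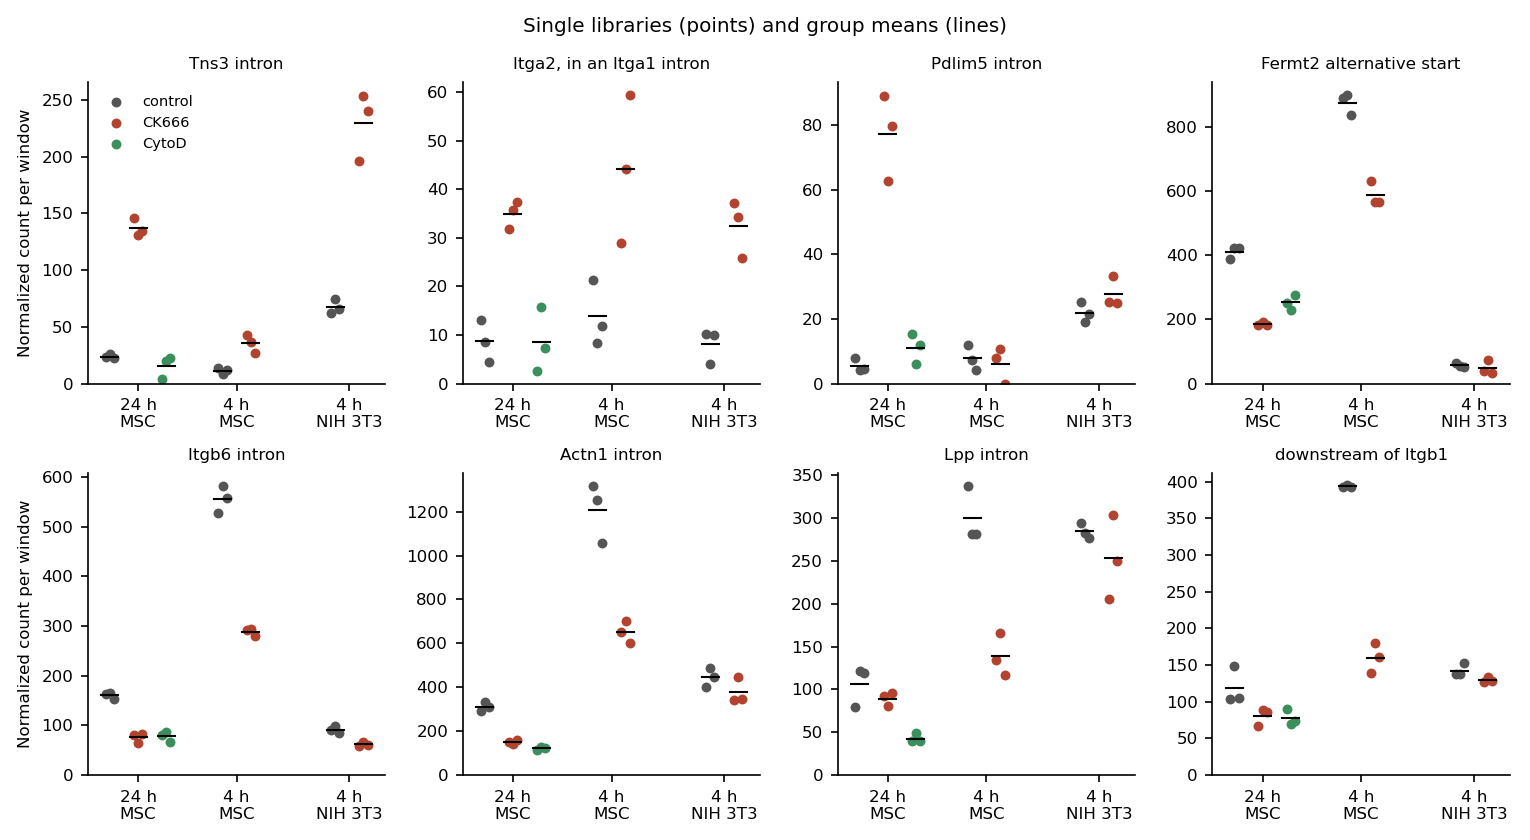
Normalized counts (vertical axis) of 8 member regions in every library, with points for libraries and lines for group means, for MSCs at 24 h (control, CK666, CytoD) and for MSCs and NIH3T3 cells at 4 h (control, CK666). Values at 4 h come from the region that overlaps the one at 24 h, which for Pdlim5 covers only a part of it, and each cell type was scaled in its own fit. In the Tns3 panel CK666 lies above control in all 3 sets, while in the Actn1 and Itgb6 panels both drugs lie below control at 24 h.

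Promoter accessibility differed widely between the genes. In CPM per kb, the main TSS region of 38 genes (none for Tln2) ranged in control MSCs at 24 h from 1.167 at Itga11 to 325.1 at Zyx, with a median of 9.073. The order at the top was Zyx (305.7, 338.8 and 330.6), Lims1 (117.4, 109.5 and 117.9) and Ilk (72.0, 73.0 and 78.2), whose ranges did not overlap. Zyx encodes zyxin, a tension-sensing LIM protein, and Ilk the integrin-linked pseudokinase. At the bottom Itga11 (0.9804, 1.534 and 0.986), Itga4 (1.551, 1.357 and 0.8893), Itgb6 (1.142, 1.704 and 1.715) and Itga3 (1.479, 2.345 and 1.569) overlapped and cannot be ordered. At 4 h control MSCs ranged from 1.111 to 350.0 with a median of 13.7, and NIH3T3 controls from 0.282 at Itgb6 to 245.2 at Zyx with a median of 11.7. Zyx and Lims1 were again the highest in both.

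At TSS regions the adjusted p under 0.01 was used without a fold limit. With CK666 at 24 h, 0 of 60 member TSS regions rose and 6 fell, against 2.49% and 1.86% of all TSS regions. With CytoD 1 rose and 6 fell, against 0.911% and 4.41%, and in the direct comparison 3 were higher and 2 lower with CK666, against 8.71% and 1.15%. In MSCs after 4 h of CK666, 0 of 57 rose and 12 fell, against 1.61% and 3.79%, and in NIH3T3 cells 0 of 55 rose and 4 fell, against 2.87% and 4.81%. The median log2 fold change of member TSS regions was -0.175 in MSCs at 4 h against -0.026 over all TSS regions, -0.129 against 0.034 with CK666 at 24 h, -0.098 against -0.072 with CytoD and -0.107 against -0.003 in NIH3T3 cells. The count of 12 was 7 in the fit of all 12 libraries, and the count of 6 with CK666 at 24 h was 3 without CK666 replicate 2 or control replicate 2. With CytoD the count of 6 was 10 without control replicate 1, and that of 4 in NIH3T3 cells was 7 without CK666 replicate 2 or control replicate 2.

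The TSS regions that fell in MSCs at 4 h belonged to Lpp, Fermt2 and Ptk2 (2 each) and to Vasp, Actn1, Itga5, Ilk, Lims1 and Zyx. Actn1 had 1341, 1375 and 1261 counts in controls and 982.6, 961.9 and 949.6 with CK666 (-0.46, adjusted p = 1.73e-08), and Itga5 had 1134, 1073 and 1135 against 817.5, 845.2 and 769.7 (-0.46, adjusted p = 9.49e-08). The alternative Fermt2 TSS fell from 890.6, 897.5 and 837.1 to 629.5, 565.8 and 566.7 (-0.58, adjusted p = 1.79e-09). The falls were of similar size in these genes and the groups did not overlap. The Zyx value (-0.15, adjusted p = 0.009104) and the Vasp value missed the threshold in many alternatives, Zyx with offsets for GC content included (-0.09, adjusted p = 0.168), and the Vasp groups overlapped, with -0.34 (adjusted p = 0.1741) without control replicate 2. In NIH3T3 cells the TSS region that Ilk shares with Rrp8 fell from 1441, 1158 and 1470 to 597.7, 669.4 and 713.8 (-1.03, adjusted p = 1.93e-09). Itga5 fell there from 1379, 1194 and 1449 to 720.7, 822.1 and 816.1 (-0.77, adjusted p = 2.34e-06), and Itga2 from 281.6, 273.6 and 276.9 to 152.8, 179.8 and 152.9 (-0.77, adjusted p = 6.2e-05). Itga9 was lower at -0.61 (adjusted p = 0.001283), lost without CK666 replicate 3 or control replicate 1 or 3, with -0.60 and adjusted p = 0.02455 in the last case.

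At 24 h the TSS region of Itgb5, the beta chain of a vitronectin receptor, fell with CK666 from 276.6, 350.3 and 369.1 counts to 172.3, 153.1 and 198.5 (-0.94, adjusted p = 3.02e-09), and it was at -0.58 with CytoD. A Ptk2 TSS region, chr15:73242763-73245773, had 362.3, 390.4 and 353.0 counts in controls and 185.8, 222.2 and 187.4 with CytoD (-0.90, adjusted p = 3.22e-09), and was at -0.47 with CK666 (adjusted p = 0.001084). The alternative Fermt2 TSS, described above for CK666, had 252.0, 229.5 and 276.1 counts with CytoD (-0.70, adjusted p = 8.23e-07). These 3 regions were lower than control in every library of both drugs. The TSS region rising with CytoD was that of Itga1, shared with Gm49395, from 577.9, 627.3 and 588.9 to 809.3, 953.3 and 924.4 (0.58, adjusted p = 6.68e-08). Smaller falls past the threshold with CK666 were at Lpp (-0.53), Lims2 (-0.50) and Tns1 (-0.44), of which Lims2 was lost without CK666 replicate 2 (-0.43, adjusted p = 0.02648) or control replicate 2 or 3.

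**Figure D5:**
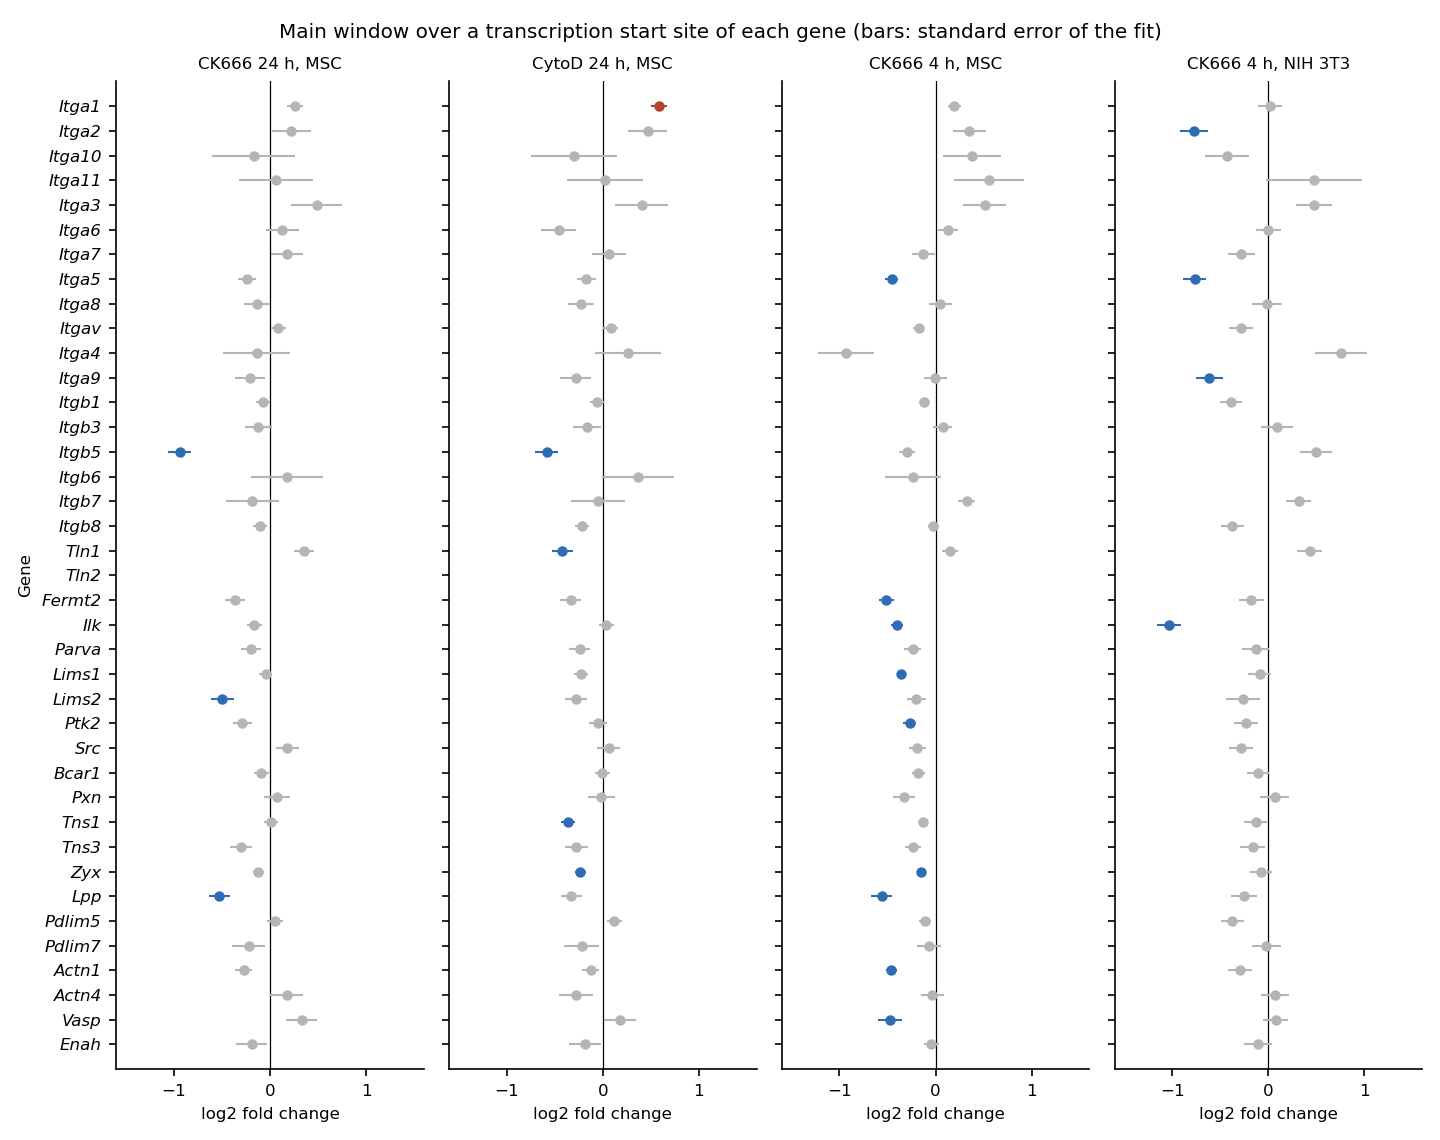
Log2 fold change with its standard error (horizontal axis) of the TSS region with the highest mean count of each gene, 1 panel per comparison, coloured where the adjusted p was under 0.01 and grey where not. Points that passed in MSCs and NIH3T3 cells after 4 h of CK666 all lie below 0.

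Untreated NIH3T3 cells and MSCs at 4 h differed at 429 member regions, 188 higher and 241 lower in NIH3T3 (14.9% and 19.1% of 1265, against 16.2% and 18.3% of all regions), so the members' share was near the background. Total counts turned the split to 238 higher and 178 lower and shifted the median of all regions by 0.23. By role, the alpha chains Itga4 and Itga9 had 24 regions called higher and 4 called lower in NIH3T3 cells among 66 (median 1.128). All of these calls were at Itga9. Genes of the integrin-linked kinase, PINCH and parvin complex had 8 called higher and 36 called lower among 109 (median -0.491). Lims1 held 1 of the higher and 24 of the lower calls, Parva 7 of each and Lims2 5 of the lower, while Ilk held no call. At Itga11, a collagen-binding alpha chain of fibroblasts, chr9:62654358-62654904 had 239.6, 274.3 and 234.7 counts in MSCs and 0, 6.08 and 0.957 in NIH3T3 cells. A Tln2 intron region, chr9:67360346-67360924, had 43.2, 47.8 and 35.4 counts in NIH3T3 cells and 0 in all 3 MSC libraries, at least 13.9-fold higher against a floor of 3 counts per library. Opposite extremes occurred in the tensins: an alternative Tns1 TSS had 441.6, 307.4 and 344.6 counts in NIH3T3 cells against 14.2, 16.02 and 12.1 in MSCs, and a Tns3 region had 35.6, 34.7 and 26.8 against 814.2, 692.7 and 690.8. At TSS regions 12 of 57 were higher and 20 lower in NIH3T3 cells, against 11.6% and 43.4% of all. The alternative Fermt2 TSS was lowest, with 68.0, 56.4 and 54.6 counts against 845.6, 853.9 and 789.9 (-3.80), while the alternative Tns1 TSS given above was highest at 4.67 and Itga2 was at 1.71.

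The test of whether CK666 acted differently in the 2 cell types called 27 member regions, 17 with a higher value in NIH3T3 cells and 10 with a lower one (1.34% and 0.791% of 1265, against 0.498% and 0.905% of all regions). With total counts the split was 28 and 9, with a shift of 0.11 in the median of all regions. At TSS regions 1 was higher and 2 were lower, against 0.793% and 1.68% of all. The TSS regions lower were those of Itga2 (-1.15, adjusted p = 0.0003474) and Ilk (-0.66, adjusted p = 0.001201). The count of 17 was 9 without MSC CK666 replicate 2 or MSC control replicate 2, 10 without MSC control replicate 1 and 11 without MSC CK666 replicate 3, NIH3T3 CK666 replicate 3 or NIH3T3 control replicate 2. The count of 10 was 23 without NIH3T3 CK666 replicate 2 and 16 without NIH3T3 CK666 replicate 3.

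Motif letters were counted in the central 300 bases of called regions. AP-1 letters were in 12 of 25 regions that fell with CytoD (48.0%) and in 0 of 11 that rose, against 16.2% of all regions tested at 24 h. TEAD letters were in 9 of the 25 (36.0%) and in a like share of those that rose (4 of 11, 36.4%), against 19.9%. RUNX letters were also in 9 of the 25 (36.0%) and in 3 of the 11 that rose (27.3%), against 27.8%. Of 20 regions gained with CK666 at 24 h, 1 held AP-1 letters (5.0%). Of the 42 regions that fell in MSCs at 4 h, 4 held a CArG box (9.52%). The share was 1.63% of all regions and 2.67% of member regions tested there. Of the same 42, 5 held AP-1 letters (11.9%, against 22.4% of all regions), 8 TEAD letters (19.0%, against 21.3%) and 12 RUNX letters (28.6%, against 28.2%). In NIH3T3 cells AP-1 letters were in 8 of 30 losses (26.7%) and 1 of 18 gains (5.56%), against 22.7% of all regions tested there. These shares are descriptions with no test.

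Neighbouring gene lists give a measure of the members' place. The 45 other adhesion adaptor genes had 20 losses and 3 gains among 1008 regions in MSCs at 4 h (1.98% falling), with values of -2.70 at Flna, which encodes the actin crosslinker filamin A, and -2.13 at Palld among the losses. The 8 other integrin subunit genes had 0 losses and 0 gains among 44 regions there. Of 27 integrin ligand genes, 26 had tested regions, with 10 losses and 8 gains among 617, the lowest at Ccn2 (-2.65) and Thbs1 (-2.45), which encode matricellular proteins. With CytoD at 24 h the other adaptors had 24 losses and 9 gains among 1049 regions, and with CK666 at 24 h 16 losses and 13 gains.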

How the data were processed

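ATAC-seq libraries from MSCs (control, CK666 and CytoD, 24 h) and from MSCs and NIH3T3 cells (control and CK666, 4 h) were analysed, 3 libraries per group. The deposited files hold raw read counts per region, 1 table for 24 h and 1 for 4 h. The authors processed reads with PEPATAC, bowtie2 and MACS2, with versions not given in the sources used here. The labels name mm10 (GRCm38). The 9 siRNA libraries were not used because their counts did not follow the region names.

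Distances to GENCODE vM21 start sites ran from region edges, and a TSS region contains one. edgeR 4.0.16 (R 4.3.3) fitted quasi-likelihood models with TMM scaling, which removes any genome-wide shift, and the default low-count filter, with 1 fit for 24 h, 1 for each cell type at 4 h and 1 over all 12 libraries at 4 h for comparisons between cell types. DESeq2 1.42.0 was an alternative. Tables and figures used Python 3.11.15, pandas 2.3.3, numpy 2.4.6 and matplotlib 3.10.9. The fits were tested on simulated data.

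Named regions were the 8 largest gains and 8 largest losses called in each comparison with control and the 4 and 4 in the others, averaging 20 normalized counts or more, the main TSS regions past the adjusted p, genes with 3 or more called regions, and called regions overlapping between times. Gene-body position, the 5 genes, further regions given and those plotted by library were chosen after values were seen. Members and lists were chosen with earlier results of these data known.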

Additional observations from a re-analysis of the deposited data

Results flagged for a closer look

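The test of the difference between NIH3T3 cells and MSCs in their response to 4 h of CK666 called 27 regions of the 39 genes. The 8 named here are the 4 with the highest and the 4 with the lowest difference (NIH3T3 minus MSC, log2) by edgeR among called regions averaging 20 normalized counts or more. A Pdlim5 region under that limit, on chromosome 3 from 142338768, had a larger difference of 3.12 (adjusted p = 0.00714).

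At Tns3, the region on chromosome 11 from 8709560 differed by 2.16 (adjusted p = 4.64e-07), with 22.7, 18.2 and 10.5 normalized counts in NIH3T3 controls, 81.4, 73.6 and 116.1 with CK666, 140.1, 192.2 and 141.6 in MSC controls and 206.4, 177.3 and 181.6 with CK666. At Tns1, the region on chromosome 1 from 73990839 differed by 1.74 (adjusted p = 9.75e-07), rising in NIH3T3 cells from 32.4, 28.7 and 44.0 to 90.6, 130.7 and 110.1, with MSC values of 215.2, 221.2 and 196.2 and of 226.5, 193.4 and 183.4. In both the treated NIH3T3 libraries stayed below the MSC libraries.

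The Itga11 region on chromosome 9 from 62654358 differed by 2.18 (adjusted p = 0.008283), but with 0, 6.08 and 0.957 counts in NIH3T3 controls and 15.4, 11.0 and 14.01 with CK666, against 239.6, 274.3 and 234.7 and 268.5, 282.0 and 278.6 in MSCs. Its adjusted p missed the threshold in most alternatives, for instance 2.10 (adjusted p = 0.01877) without MSC control replicate 2. The Itga4 TSS region on chromosome 2 from 79254974 differed by 1.67 (adjusted p = 0.005748), with 35.6, 26.1 and 36.4 counts in NIH3T3 controls, 49.1, 50.5 and 62.1 with CK666, 42.6, 37.0 and 43.5 in MSC controls and 17.2, 23.6 and 23.4 with CK666. It moved in opposite directions in the cell types, and the call was lost without any of several libraries, such as NIH3T3 CK666 replicate 3 (1.5, adjusted p = 0.03381).

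The Itgb3 region on chromosome 11 from 104599535 differed by -2.08 (adjusted p = 7.61e-05), rising in MSCs from 39.6, 45.1 and 27.3 to 106.1, 84.4 and 87.2, while NIH3T3 cells had 35.6, 42.5 and 57.4 in controls and 33.8, 21.97 and 25.0 with CK666. At Itga8 the region on chromosome 2 from 12255431 differed by -1.63 (adjusted p = 0.0002763), with 314.2, 254.4 and 310.1 counts in NIH3T3 controls, 135.1, 201.0 and 128.1 with CK666, 12.2, 31.0 and 23.3 in MSC controls and 41.1, 32.9 and 36.0 with CK666.

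At Fermt2 the region on chromosome 14 from 45563391 differed by -1.49 (adjusted p = 3.37e-07), falling in NIH3T3 cells from 280.7, 257.0 and 311.1 to 109.0, 131.8 and 129.1, with 138.1, 145.2 and 132.5 in MSC controls and 173.0, 170.6 and 168.1 with CK666. The Lims1 region on chromosome 10 from 58338243 differed by -1.46 (adjusted p = 4.59e-05), with 64.8, 111.1 and 91.9 counts in NIH3T3 controls, 30.7, 36.2 and 50.04 with CK666, 273.1, 230.2 and 323.7 in MSC controls and 311.5, 374.1 and 320.0 with CK666.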

How the results depend on the processing

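Of 104 named regions, 65 kept their call in every alternative and 68 in every fit without 1 library, and none changed direction. Single libraries decided calls at regions of low counts and also at TSS regions of high counts with small changes, such as those of Zyx and Ptk2.

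Counts of called regions that moved by over 1.5 times are given as higher or lower calls, and the cause was not tested unless the setting itself counts fewer regions. With regions limited to 10 kb of a TSS, which leaves fewer regions, CK666 at 24 h had 9 higher and 1 lower, CytoD 3 and 9, the direct comparison 14 and 3, CK666 at 4 h 9 lower in MSCs and 6 higher and 10 lower in NIH3T3 cells, the difference between cell types 5 and 4, and untreated cell types 78 and 95. With DESeq2, CytoD had 5 higher, the direct comparison 8 lower, CK666 at 4 h 24 lower in MSCs and 11 higher in NIH3T3 cells. With total counts, CytoD had 16 lower and the difference between cell types 28 higher, and higher TSS regions numbered 2 for CK666 at 24 h, 1 in MSCs and 3 in NIH3T3 cells at 4 h, 3 for the difference and 19 for untreated cell types, while 6 were lower in the direct comparison. With all 12 libraries fitted, 24 regions and 7 TSS regions were lower in MSCs at 4 h and 7 TSS regions in NIH3T3 cells.

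Labels give groups the same replicate numbers, but deviations of libraries with the same number correlated only between -0.073 and 0.029. Those with other numbers correlated between -0.053 and 0.054. No deviation particular to a shared number was seen, and whether such libraries shared a culture or day cannot be told from these values. The replicate block gave 20 higher and 7 lower for CK666 at 24 h, 11 and 23 for CytoD, 26 and 12 directly, 4 and 41 for MSCs and 20 and 32 for NIH3T3 cells at 4 h, and 1 TSS region higher in MSCs at 4 h. The replicate block with GC offsets left 1 TSS region lower in the direct comparison and 0 higher in the difference between cell types.

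Without 1 library, higher and lower calls ranged from 16 to 18 and 6 to 10 for CK666 at 24 h, 3 to 9 and 19 to 27 for CytoD, 19 to 28 and 5 to 11 directly, 3 to 4 and 25 to 39 for MSCs and 11 to 21 and 25 to 36 for NIH3T3 cells at 4 h, 9 to 19 and 9 to 23 for the difference and 169 to 179 and 212 to 225 for untreated cell types. TSS regions higher and lower ranged from 0 to 0 and 3 to 9, 1 to 1 and 4 to 10, 2 to 4 and 0 to 1, 0 to 1 and 8 to 15, 0 to 0 and 3 to 7, 0 to 1 and 1 to 3, and 11 to 13 and 19 to 20 in the same order. With CytoD the higher calls were 3, 4 and 7 without CytoD replicate 1, 2 or 3 and 5 and 6 without control replicate 2 or 3.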
